A study of Mus musculus with 12 samples.

Results

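The genes described here are the components through which a cell senses IL1β: the IL1 receptor chains Il1r1 and Il1rap, the related receptor Il1rl1, the adaptor Myd88, the IL1 receptor-associated kinases Irak1, Irak2, Irak3 and Irak4, the ubiquitin ligase Traf6 and the kinase Map3k8. They were taken by gene symbol, and all 10 had a line among the 43269 named genes of the count table. RNA was sequenced from the mouse line MC38CEA, which derives from a colon adenocarcinoma and carries human carcinoembryonic antigen, in 4 groups of 3 libraries. Adam17-KD cells stimulated with cytokines, control cells stimulated with cytokines, unstimulated Adam17-KD cells and unstimulated control cells were compared. Stimulation was for 6 h with recombinant human IL1β and recombinant mouse IFNγ, each at 10 ng/ml. Adam17-KD cells had received Cas9 mRNA and then sgRNAs against Adam17, the gene of a protease that releases the outer parts of membrane proteins. In the study, control cells for the editing had received Cas9 mRNA and an sgRNA against EGFP. The sample titles call the control libraries WT and the Adam17-KD libraries KO, and do not say whether the WT libraries came from those EGFP controls. The study worked with the edited population and with clones grown from it, and the labels do not say which was sequenced. The cytokines were given together, and the share of each in a change cannot be told apart. The labels call the libraries biological replicates without saying whether each had its own culture, so p-values cover the spread between these libraries, which may be technical.

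IL1β binds IL1R1, which then recruits the accessory chain IL1RAP, and the joined receptor tails bind the adaptor MyD88. MyD88 gathers IRAK4, IRAK1 and IRAK2 into a complex that passes the signal to TRAF6, and TRAF6 builds ubiquitin chains that activate the kinases upstream of NF-κB and the MAP kinases. IRAK3, also called IRAK-M, restrains this complex, mainly in monocytes and macrophages. IL1RL1, also called ST2, is the receptor for IL33, shares IL1RAP with IL1R1 and is also made as a soluble decoy. MAP3K8, also called TPL2, is held by the NF-κB1 precursor p105 and, once freed, activates MEK1 and MEK2.

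The libraries held 13156871 to 25443307 counts. Adam17 was lower in the Adam17-KD libraries, at 59.8 ± 2.63 CPM against 105 ± 9.76 CPM in control cells with cytokines and at 52.2 ± 4.39 CPM against 87.7 ± 9.41 CPM without (SD, n = 3 each), where CPM is counts per 1000000 of a TMM-scaled library total. Averaged over both conditions Adam17 fell by 0.78 on the log2 scale (SE 0.08, adjusted p by edgeR 0.00103), and this passed in all 18 alternatives. Its adjusted p was 0.0327 with cytokines and 0.0136 without. The call with cytokines was lost when any library other than the first stimulated or first unstimulated control replicate was left out (adjusted p 0.0590 to 0.231), and the call without cytokines when any unstimulated library other than the first control replicate was left out (0.0662 to 0.0942), the direction staying the same. The line derives from a colon adenocarcinoma, but epithelial markers were scarce in the RNA. Of 12 epithelial markers 1 passed the filter on low counts, and their summed level was 0.631 to 1.75 CPM in every library, with Epcam at 0 to 2 counts in each group. Leukocyte markers summed to 3.52 to 7.55 CPM and mast cell and type 2 lymphoid markers to 3.20 to 7.04 CPM, mostly Gata3, while Kit, one of the mast cell markers, was between 1 and 4 counts per group. The 10 fibroblast and endothelial markers summed to 745 to 974 CPM in Adam17-KD against 261 to 659 CPM in control libraries with cytokines, and to 843 to 1152 CPM against 409 to 604 CPM without. The fibrillar collagen genes Col3a1 and Col1a2 made up most of these sums, while the endothelial markers Pecam1, Cdh5 and Kdr stood at 1 to 24 counts per group. Col3a1, Col1a2, Pdgfra, Pdgfrb and Dcn averaged higher in Adam17-KD cells in both conditions. Col1a1 averaged lower, at 1.82 ± 0.336 against 2.46 ± 1.26 CPM with cytokines and 2.49 ± 0.648 against 2.91 ± 1.42 CPM without. Lum had 7 to 13 counts per group. Of the 6 markers tested between the lines, 0 passed by edgeR with cytokines and 1 without, Col1a2 (4 in each at an unadjusted p under 0.05). In the average over both conditions 2 of the 6 passed, both higher in Adam17-KD cells (5 at an unadjusted p by edgeR under 0.05). Over all 14673 genes, 0.0341% passed with cytokines, 0.47% without and 1.24% in the average. An unadjusted p by edgeR under 0.05 was seen for 676 genes with cytokines, 1109 without and 1589 in the average. The part of these markers in the values below was not tested.

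Of the 10 components, 9 passed the filter on low counts. In both lines 4 of these 9 rose with IL1β and IFNγ and none fell: Irak2, Il1rl1, Map3k8 and Myd88. A gene is said to rise or fall where edgeR's quasi-likelihood test gave a Benjamini-Hochberg adjusted p under 0.05 over 14673 genes. Whether stimulated and unstimulated libraries overlap is given for each component as a description only. The share of all genes whose libraries separate by stimulation was not counted. The background was 6.37% of all genes tested that rose and 1.53% that fell in Adam17-KD cells, and 5.75% that rose and 1.06% that fell in control cells. The median log2 fold change of the 9 components was 0.20 in Adam17-KD cells and 0.26 in control cells, while over all genes tested it was 0.0015 in Adam17-KD cells and -0.03 in control cells.

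**Figure D1:**
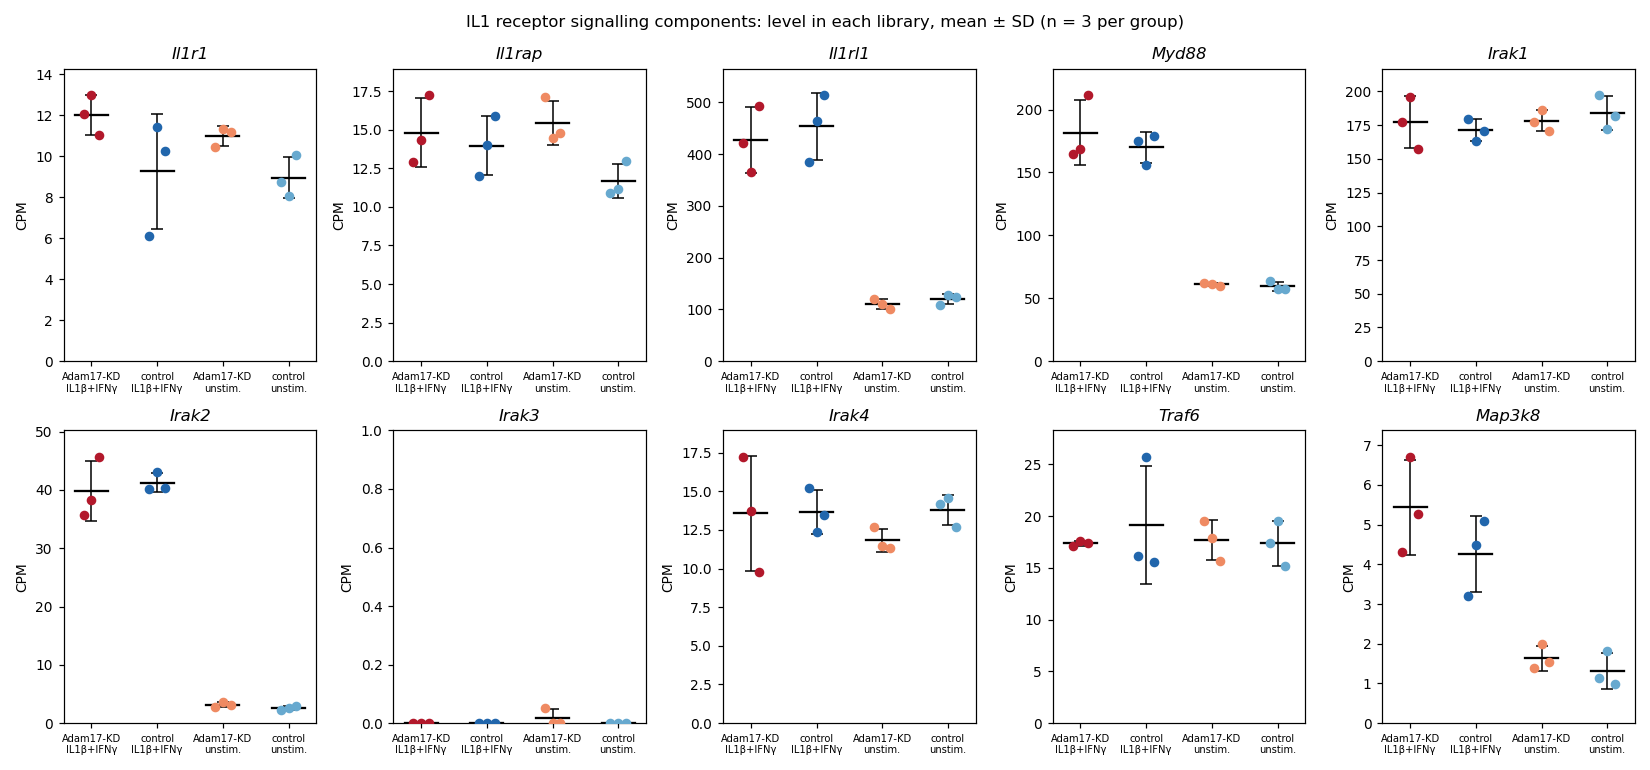
Level of each component in CPM (linear axes from 0) in the 12 libraries, with Adam17-KD and control cells under IL1β plus IFNγ followed by the unstimulated groups; points are libraries, and horizontal lines and bars are the mean ± SD of 3. Irak2, Il1rl1, Myd88 and Map3k8 separate by stimulation, while Irak3 has 1 count in all 12 libraries and the other 5 overlap between stimulated and unstimulated cells. The share of all genes that separate in this way was not counted.

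The start-site windows of the components that rose are shown because these genes moved together. The RefSeq table (GRCm38.p6, 250 bases before to 50 after each annotated start, written 5′ to 3′ on the gene's strand) had 13 windows for 9 of the 10 components, Map3k8 having none. Capitals mark letters that match an ISRE core, the letters GAAA and again GAAA with 2 bases between them, which interferon regulatory factors bind. The NF-κB consensus was searched as well, each motif on both strands.
Irak2 (chr6:113638217-113638516, + strand): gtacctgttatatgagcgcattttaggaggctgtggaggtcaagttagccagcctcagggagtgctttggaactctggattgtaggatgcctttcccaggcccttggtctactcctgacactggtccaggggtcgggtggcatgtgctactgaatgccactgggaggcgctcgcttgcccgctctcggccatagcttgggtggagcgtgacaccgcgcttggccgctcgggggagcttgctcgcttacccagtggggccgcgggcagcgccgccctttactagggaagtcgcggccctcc
Il1rl1, distal start (chr1:40429320-40429619, + strand): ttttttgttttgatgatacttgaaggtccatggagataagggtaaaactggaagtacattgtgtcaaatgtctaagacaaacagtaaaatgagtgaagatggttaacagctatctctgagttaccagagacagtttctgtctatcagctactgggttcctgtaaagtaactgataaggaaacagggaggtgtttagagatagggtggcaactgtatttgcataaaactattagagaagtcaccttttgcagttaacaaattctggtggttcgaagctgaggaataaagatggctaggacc
Il1rl1, proximal start (chr1:40439379-40439678, + strand): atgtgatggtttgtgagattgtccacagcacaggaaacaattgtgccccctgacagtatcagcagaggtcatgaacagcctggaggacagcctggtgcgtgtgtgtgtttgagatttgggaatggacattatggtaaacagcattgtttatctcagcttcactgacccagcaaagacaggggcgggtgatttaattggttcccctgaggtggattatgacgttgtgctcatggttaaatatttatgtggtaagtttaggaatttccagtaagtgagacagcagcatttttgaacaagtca
Myd88 (chr9:119339969-119340268, - strand): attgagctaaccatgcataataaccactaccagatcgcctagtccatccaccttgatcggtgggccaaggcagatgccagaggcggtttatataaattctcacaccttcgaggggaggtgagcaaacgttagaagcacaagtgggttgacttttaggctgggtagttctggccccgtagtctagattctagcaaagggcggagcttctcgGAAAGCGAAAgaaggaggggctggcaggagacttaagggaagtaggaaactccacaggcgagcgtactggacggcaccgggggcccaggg

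In the Myd88 window an ISRE match stood at bases 211 to 220. No match to either motif stood in the Irak2 window or in either Il1rl1 window. Among components that did not pass the test, an ISRE match stood in an Il1rap window, and an NF-κB match stood in a window of Il1r1 and in both windows of Irak1. The Irak1 windows overlap, and the match in them is the same site. Of all 32851 windows of this length, 3.44% held an ISRE match and 8.46% an NF-κB match. A match is a description of these letters and says nothing of binding, and its absence says nothing of the factor.

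IL1R1 is the chain that binds IL1β. In Adam17-KD cells Il1r1 (chr1:40225080-40317257, + strand) stood at 12.1, 12.98 and 11.0 CPM with cytokines, against 10.4, 11.4 and 11.2 CPM without. In control cells it stood at 6.12, 11.5 and 10.2 CPM with cytokines, against 8.73, 8.08 and 10.0 CPM without. The stimulated and unstimulated libraries overlapped in both lines, and the low stimulated control library, replicate 1, was the lowest of all 12. The log2 fold change, given here and below with its SE, was 0.13 ± 0.21 in Adam17-KD cells (adjusted p by edgeR 0.838) and 0.05 ± 0.21 in control cells (adjusted p 0.960).

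IL1RAP is the accessory chain that both IL1R1 and ST2 need to signal. In Adam17-KD cells Il1rap (chr16:26581704-26730117, + strand) stood at 12.9, 14.3 and 17.2 CPM with cytokines, against 17.1, 14.5 and 14.8 CPM without. Control cells had 12.005, 14.03 and 15.9 CPM of it with cytokines, against 10.9, 11.2 and 12.96 CPM without. The groups overlapped in both lines. The log2 fold change was -0.06 ± 0.17 in Adam17-KD cells (adjusted p by edgeR 0.912) and 0.26 ± 0.17 in control cells (adjusted p 0.562). The 95% intervals were -0.42 to 0.29 in Adam17-KD cells and -0.10 to 0.62 in control cells.

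Il1rl1, the gene of the IL33 receptor ST2, was the only one of the 3 receptor chains among the components that passed the test. In Adam17-KD cells Il1rl1 (chr1:40429570-40465415, + strand) stood at 422, 365 and 492 CPM with cytokines, against 120, 110 and 101 CPM without. Control cells had 385, 463 and 514 CPM with cytokines, against 109, 127 and 124 CPM without. Every stimulated library lay above every unstimulated one. It rose 3.86-fold in Adam17-KD cells (log2 1.95 ± 0.15, adjusted p by edgeR 5.16e-07) and 3.78-fold in control cells (log2 1.92 ± 0.15, adjusted p 5.59e-07). These are counts per gene, so the membrane and soluble forms of ST2, which come from the same gene, were not separated. In a bulk RNA sample a higher level in the same cells and a larger share of cells with the transcript cannot be told apart, here and for every gene below.

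Il1r1 and Il1rl1 lie in a cluster of 6 receptor genes spanning 478 kb of chromosome 1, in the order Il1r2, Il1r1, Il1rl2, Il1rl1, Il18r1 and Il18rap. Il1r2, which encodes a decoy receptor for IL1, Il1rl2, the IL36 receptor, and Il18r1, the chain that binds IL18, had between 0 and 5 counts per group of 3 libraries. Il18rap, the accessory chain of the IL18 receptor, averaged 81.2 ± 12.2 CPM in stimulated against 32.2 ± 3.77 CPM in unstimulated Adam17-KD cells, and 73.3 ± 8.88 CPM against 26.2 ± 2.02 CPM in control cells (SD, n = 3). It rose by log2 1.33 ± 0.15 in Adam17-KD cells (adjusted p by edgeR 2.22e-05) and by 1.48 ± 0.15 in control cells (adjusted p 7.89e-06). Of this cluster, then, Il1rl1 and Il18rap rose, Il1r1 did not pass the test, and the other 3 were near 0.

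MyD88 is the adaptor that IL1 family receptors share with most Toll-like receptors. In Adam17-KD cells Myd88 (chr9:119335934-119341411, - strand) stood at 165, 169 and 211 CPM with cytokines, against 62.5, 61.1 and 59.8 CPM without. The control levels were 175, 156 and 179 CPM with cytokines, against 63.8, 57.2 and 57.3 CPM without. The unstimulated libraries were tightly placed, and no stimulated library came near them. Myd88 rose 2.97-fold in Adam17-KD cells (log2 1.57 ± 0.12, adjusted p by edgeR 5.90e-07) and 2.86-fold in control cells (log2 1.51 ± 0.12, adjusted p 7.76e-07).

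IRAK4 is the first kinase of the complex and phosphorylates IRAK1. In Adam17-KD cells Irak4 (chr15:94543643-94581815, + strand) stood at 17.2, 13.7 and 9.78 CPM with cytokines, against 12.7, 11.5 and 11.4 CPM without. Control cells had 15.2, 12.4 and 13.4 CPM with cytokines, against 14.2, 14.5 and 12.7 CPM without. The groups overlapped, and the stimulated Adam17-KD libraries were the most spread. The log2 fold change was 0.20 ± 0.19 in Adam17-KD cells (adjusted p by edgeR 0.693) and -0.01 ± 0.19 in control cells (adjusted p 0.993).

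IRAK1 is the kinase that hands the signal to TRAF6. In Adam17-KD cells Irak1 (chrX:74013914-74023918, - strand) stood at 177, 196 and 158 CPM with cytokines, against 177, 186 and 171 CPM without. The control levels were 179, 163 and 171 CPM with cytokines, against 197, 172 and 182 CPM without. All 12 libraries fell in a narrow band. The log2 fold change was -0.01 ± 0.11 in Adam17-KD cells (adjusted p by edgeR 0.986) and -0.10 ± 0.11 in control cells (adjusted p 0.782), and the 95% intervals were -0.25 to 0.23 in Adam17-KD and -0.34 to 0.13 in control cells.

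Irak2, which encodes the kinase that joins the complex beside IRAK1 and sustains late signalling, had the largest fold change of the 9. In Adam17-KD cells Irak2 (chr6:113638467-113695026, + strand) stood at 35.7, 38.3 and 45.6 CPM with cytokines, against 2.82, 3.55 and 3.19 CPM without. Control libraries held 40.2, 43.1 and 40.4 CPM with cytokines, against 2.28, 2.55 and 3.00 CPM without. The stimulated libraries were far above the unstimulated ones, which rested on 49 to 73 counts each. Irak2 rose 12.5-fold in Adam17-KD cells (log2 3.64 ± 0.16, adjusted p by edgeR 3.42e-09) and 15.8-fold in control cells (log2 3.98 ± 0.17, adjusted p 1.32e-09).

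Irak3 was at the limit of detection. The gene (chr10:120141648-120202130, - strand) had 1 count, in the unstimulated Adam17-KD replicate 1, and 0 counts in the other 11 libraries. At these depths a count of 0 allows a level of up to 0.114 to 0.233 CPM, taking 3 counts as the floor and counting error alone. It was therefore not tested.

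TRAF6 is the ubiquitin ligase at which the branches to NF-κB and to the MAP kinases part. In Adam17-KD cells Traf6 (chr2:101678429-101701669, + strand) stood at 17.1, 17.6 and 17.4 CPM with cytokines, against 19.5, 17.9 and 15.7 CPM without. Control libraries held 16.2, 25.7 and 15.6 CPM with cytokines, against 17.5, 19.6 and 15.2 CPM without. The groups overlapped, and the stimulated control replicate 2 stood above all the others. The log2 fold change was -0.03 ± 0.19 in Adam17-KD cells (adjusted p by edgeR 0.971) and 0.14 ± 0.19 in control cells (adjusted p 0.856).

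Map3k8 was the scarcest of the components tested, with 23 to 37 counts per unstimulated library. In Adam17-KD cells it stood at 4.32, 6.70 and 5.28 CPM with cytokines, against 1.38, 1.99 and 1.53 CPM without. In control cells it stood at 3.21, 4.48 and 5.09 CPM with cytokines, against 1.14, 1.82 and 0.987 CPM without. Stimulated and unstimulated libraries did not overlap. Map3k8 rose 3.32-fold in Adam17-KD cells (log2 1.73 ± 0.30, adjusted p by edgeR 0.00157) and 3.26-fold in control cells (log2 1.71 ± 0.30, adjusted p 0.00204). Its 95% intervals were the widest of the 9, at 1.08 to 2.38 in Adam17-KD and 1.05 to 2.36 in control cells on the log2 scale.

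**Figure D2:**
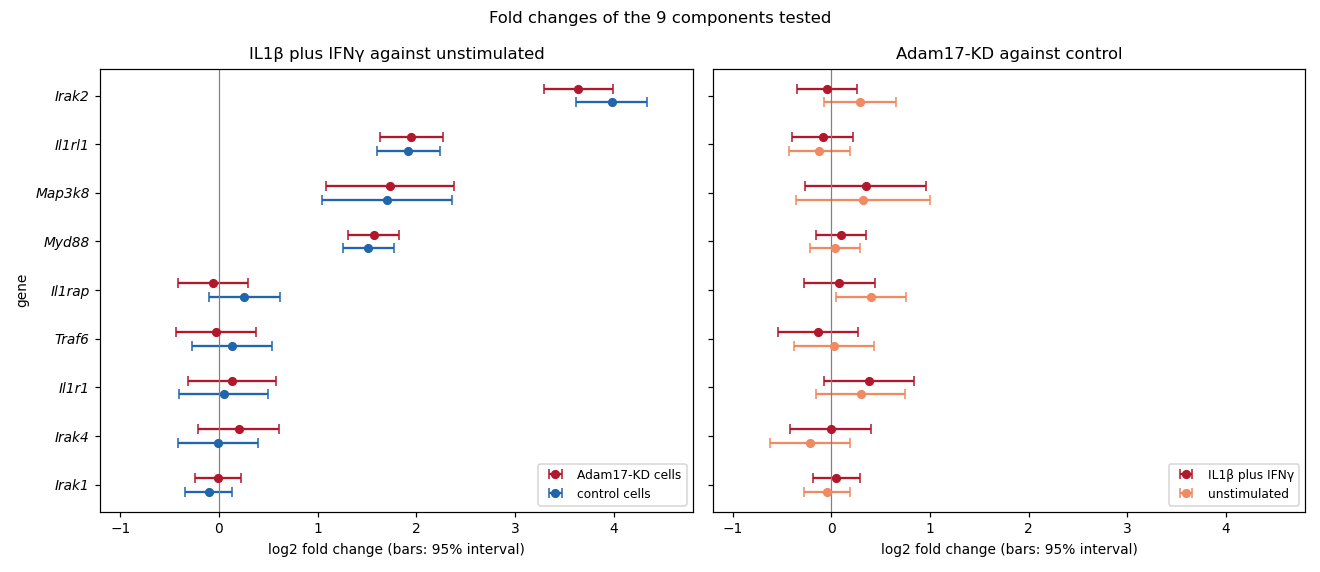
Log2 fold changes of the 9 components tested with 95% intervals, for IL1β plus IFNγ against unstimulated cells in both lines (left) and for Adam17-KD against control cells in both conditions (right). The intervals of Irak2, Il1rl1, Map3k8 and Myd88 lie well above 0 on the left in both lines, and on the right all values lie between -0.22 and 0.40.

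No difference between the responses of the lines was detected for any component. The difference between the fold changes, Adam17-KD minus control, was -0.34 ± 0.22 for Irak2 (95% interval -0.81 to 0.14), 0.03 ± 0.20 for Il1rl1 (-0.40 to 0.46), 0.06 ± 0.17 for Myd88 (-0.30 to 0.41) and 0.02 ± 0.44 for Map3k8 (-0.93 to 0.98) on the log2 scale. Over the 9 components these differences ran from -0.34 to 0.21. By edgeR none of the 9 passed at an adjusted p under 0.05, 0 had an unadjusted p under 0.05, and DESeq2 and limma-voom called 0 as well. The share over all genes tested was 0% by the adjusted p, and 222 of 14673 had an unadjusted p by edgeR under 0.05. All 9 intervals lay within a 2-fold difference in either direction, and a difference anywhere inside an interval is compatible with these libraries. The intervals hold for each gene without correction over all genes. They are therefore not limits beyond which the adjusted test would have made a call.

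Without cytokines, none of the 9 components passed the test between Adam17-KD and control cells, against 0.470% of all genes (69 genes, or 130 with the replicate numbers as a block). The log2 fold changes ran from -0.22 for Irak4 to 0.40 for Il1rap. Il1rap was the 1 component with an unadjusted p under 0.05, at 0.40 ± 0.17 (unadjusted p by edgeR 0.0291, adjusted p 0.564). Over all 14673 genes 1109 had such a p, so 1 of 9 is near that share and no result about the components. For Il1rap the 3 Adam17-KD libraries lay above the 3 control libraries. Il1r1 also did not overlap, at 0.30 ± 0.21 (adjusted p by edgeR 0.815). The share of all genes whose libraries separate between the lines in this way was not counted, so the separation is no result about these chains. DESeq2 and limma-voom called none of the 9 either. The higher marker sums led by Col3a1 and Col1a2 fall in the same Adam17-KD libraries, and their part in these values was not tested.

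With cytokines, again 0 of 9 passed by edgeR, DESeq2 or limma-voom, and 0 had an unadjusted p under 0.05 by edgeR, against 676 of all 14673 genes. The background was 0.0341% of all genes, which is 5 genes (11 with the replicate numbers as a block, 66 in DESeq2 and 98 with no filter on low counts). It was 0 without replicate 1 or 2 of the stimulated Adam17-KD cells or replicate 3 of the stimulated controls. The log2 fold changes ran from -0.14 for Traf6 to 0.38 for Il1r1, and the libraries of the lines overlapped for each component. Each end rested on 1 control library: Traf6 stood at 0.13 without stimulated control replicate 2, and Il1r1 at 0.15 without stimulated control replicate 1. Averaged over both conditions, 0 of 9 passed by edgeR, DESeq2 or limma-voom, against 1.24% of all genes by edgeR (182 genes, or 302 with the replicate numbers as a block). Il1r1 was the 1 component with an unadjusted p under 0.05 in that average, at log2 0.34 ± 0.15 (unadjusted p by edgeR 0.0395, adjusted p 0.421). Over all 14673 genes 1589 had such a p, so 1 of 9 is near that share and no result about the components. Over the 18 alternatives this value of Il1r1 ran from 0.22 to 0.42. Every 95% interval of the average stayed between -0.40 and 0.79.

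Levels of different genes were set side by side as CPM per kilobase of annotated exon, since a longer transcript collects more counts. In unstimulated control cells the order was Irak1 (39.0 CPM per kb), Myd88 (23.1), Il1rl1 (17.4), Irak4 (2.75), Traf6 (2.21), Il1r1 (1.41), Il1rap (1.03), Irak2 (0.592) and Map3k8 (0.292). No neighbours in that order overlapped over their 3 libraries. In stimulated control cells Myd88 (66.0) and Il1rl1 (65.8) led and overlapped with each other, ahead of Irak1 (36.3) and Irak2 (9.34). Irak4 (2.72) and Traf6 (2.43) overlapped there, as did Il1r1 (1.46) with Il1rap (1.23) and Il1rap with Map3k8 (0.946). Adam17-KD cells had the same 4 leading genes with cytokines, Myd88 at 70.5, Il1rl1 at 61.9, Irak1 at 37.5 and Irak2 at 9.04 CPM per kb. Irak2 stood eighth of the 9 tested in both unstimulated groups.

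Within a library, Irak2 per kilobase was 0.245 ± 0.056 of Irak1 in stimulated against 0.0191 ± 0.0018 in unstimulated Adam17-KD cells, and 0.258 ± 0.022 against 0.0153 ± 0.0027 in control cells (SD, n = 3). The kinase make-up of the RNA was thus still led by Irak1 in every group, with Irak2 above Irak4 in the stimulated libraries and below it in the unstimulated ones. Il1rl1 per kilobase exceeded Il1r1 33.1 ± 7.67 times in stimulated against 9.30 ± 1.17 times in unstimulated Adam17-KD cells, and 47.2 ± 10.4 times against 12.5 ± 1.79 times in control cells. These ratios rest on the union of all annotated exons, and the transcript forms in these cells were not resolved.

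**Figure D3:**
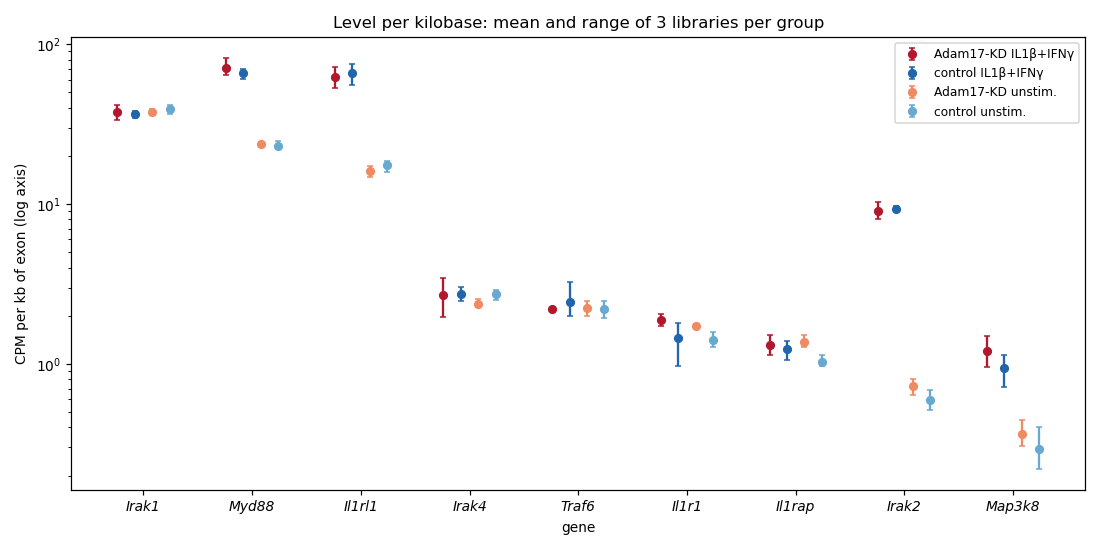
Level of 9 components in CPM per kilobase of exon on a log axis, with Adam17-KD and control cells under IL1β plus IFNγ to the left of the unstimulated groups within each gene; points are means and bars the range of 3 libraries. Irak2 averages 9.04 in stimulated against 0.723 in unstimulated Adam17-KD cells, and 9.34 against 0.592 in control cells, while Irak1 stays at 36.3 to 39.0 in all 4 groups.

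Among 18 other IL1 family ligands, receptors and regulators, 6 were high enough to test. In both lines 3 of these rose and none fell: Il18bp, which encodes a secreted protein that neutralises IL18, Il18rap and Il18. Over all genes tested 6.37% rose in Adam17-KD and 5.75% in control cells. Il18bp averaged 25.7 ± 3.38 CPM in stimulated against 2.72 ± 0.361 CPM in unstimulated Adam17-KD cells (log2 3.24 ± 0.22, adjusted p by edgeR 1.96e-07). In control cells it averaged 14.9 ± 1.98 CPM against 2.38 ± 0.638 CPM (log2 2.63 ± 0.22, adjusted p by edgeR 1.34e-06). Il18, a low gene at 1.71 ± 0.418 CPM in stimulated against 0.634 ± 0.247 CPM in unstimulated Adam17-KD cells, rose by log2 1.44 ± 0.36 (adjusted p by edgeR 0.0224), and by 2.40 ± 0.42 in control cells (adjusted p 0.00182). Its call in Adam17-KD cells was lost without stimulated Adam17-KD replicate 1 or 3 or unstimulated Adam17-KD replicate 2 or 3 (log2 1.11 to 1.56, adjusted p by edgeR 0.0573 to 0.121). Il33, the ligand of ST2, averaged 5.47 ± 2.13 CPM in stimulated against 2.27 ± 0.957 CPM in unstimulated Adam17-KD cells and 6.80 ± 3.45 CPM against 2.31 ± 0.903 CPM in control cells, and did not pass (adjusted p by edgeR 0.141 in Adam17-KD and 0.0563 in control cells). With the replicate numbers as a block it passed in both lines, with an adjusted p by edgeR of 0.00253 in Adam17-KD and 5.82e-04 in control cells, and in control cells it also passed when replicate 2 of either stimulated group or replicate 3 of the unstimulated Adam17-KD cells was left out (0.0103 to 0.0446). The cells' own IL1 genes were near 0: Il1a had 0 to 5 counts and Il1b 0 to 1 per group of 3 libraries, and Il1rn, the receptor antagonist, 17 to 29. The median log2 fold change of the 6 was 1.30 in Adam17-KD cells and 1.52 in control cells.

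Of 24 genes that pass the signal from the MyD88 complex to the IKK and MAP kinase modules, 23 were tested, and 2 rose in both lines while none fell. This share is near that of all genes, of which 6.37% rose in Adam17-KD and 5.75% in control cells, so it is no result about the list. Map2k1, which encodes MEK1, a substrate of MAP3K8, averaged 347 ± 10.1 CPM in stimulated against 223 ± 14.2 CPM in unstimulated Adam17-KD cells (log2 0.64 ± 0.11, adjusted p by edgeR 0.00124). In control cells Map2k1 averaged 354 ± 31.0 CPM against 212 ± 13.8 CPM (log2 0.74 ± 0.11, adjusted p by edgeR 3.32e-04). Tifa, which encodes a TRAF6-binding adaptor, rose by log2 1.84 ± 0.31 in Adam17-KD cells (adjusted p by edgeR 0.00111) and by 1.64 ± 0.30 in control cells (adjusted p 0.00266). The median over the 23 was 0.02 in Adam17-KD cells and 0.08 in control cells.

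Of 19 genes that restrain the pathway or partner MAP3K8, 18 were tested, and 11 rose in each line while 1 fell. Over all genes tested 6.37% rose and 1.53% fell in Adam17-KD cells, and 5.75% rose and 1.06% fell in control cells. Nfkbia and Nfkbie encode IκB proteins that hold NF-κB in the cytoplasm, Nfkbiz a nuclear IκB protein, Zfp36 an RNA-binding protein that speeds decay of cytokine mRNAs, and Socs1 an inhibitor of cytokine receptor kinases. Nfkbia averaged 222 ± 1.11 CPM in stimulated against 61.8 ± 3.18 CPM in unstimulated Adam17-KD cells (log2 1.84 ± 0.11) and 219 ± 17.7 CPM against 55.2 ± 5.96 CPM in control cells (log2 1.99 ± 0.11). Nfkbiz rose by log2 3.06 ± 0.20 in Adam17-KD and 3.24 ± 0.20 in control cells, and Socs1 by 3.49 ± 0.27 in Adam17-KD and 3.33 ± 0.27 in control cells. Zfp36 rose by 2.35 ± 0.15 in Adam17-KD and 2.29 ± 0.15 in control cells, and Nfkbie by 1.40 ± 0.13 in Adam17-KD and 1.76 ± 0.14 in control cells. The adjusted p by edgeR of these 5 genes was at most 6.03e-06 in either line. The gene that fell, named after its values were seen, was Dusp1, which encodes a phosphatase of MAP kinases, at 8.28 ± 1.84 CPM in stimulated against 20.4 ± 5.94 CPM in unstimulated Adam17-KD cells and 4.31 ± 1.59 CPM against 17.1 ± 4.54 CPM in control cells. Its adjusted p by edgeR was 0.00968 in Adam17-KD and 4.16e-04 in control cells. In Adam17-KD cells the call was lost without stimulated replicate 3 (adjusted p 0.0528) or unstimulated replicate 2 (0.0573). The median log2 fold change of the 18 was 1.00 in Adam17-KD cells and 1.05 in control cells.

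**Figure D4:**
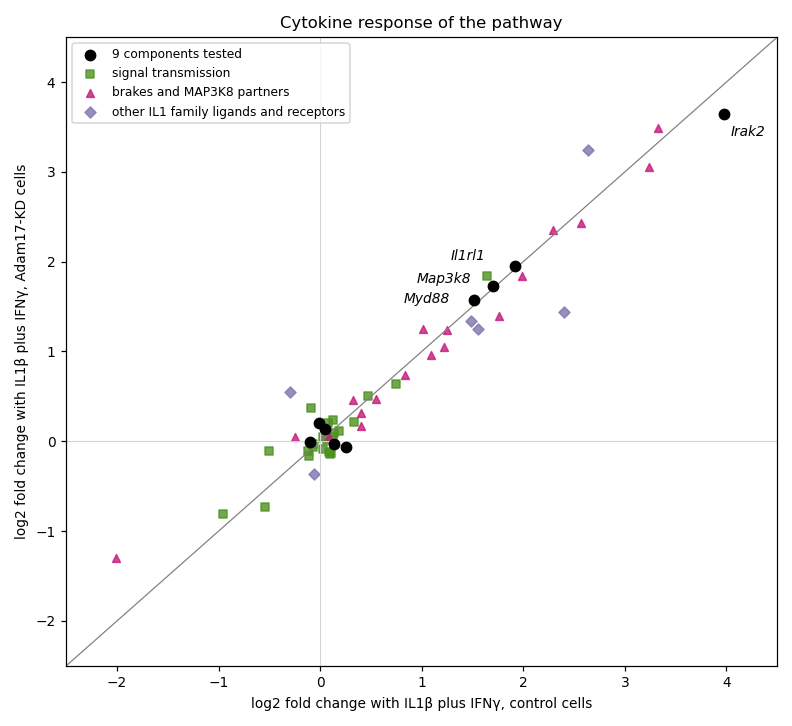
Log2 fold change with IL1β plus IFNγ in Adam17-KD cells (vertical axis) and in control cells (horizontal axis) for the 9 components tested (black circles), 23 signal transmission genes, 18 brakes and MAP3K8 partners and 6 other IL1 family genes; the line marks equal change. Irak2 lies farthest out at 3.64 in Adam17-KD and 3.98 in control cells, most signal transmission genes lie near 0, and Dusp1 is the lowest point.

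Few genes of these pathway lists passed the test between the lines. Over all genes tested 1.24% passed by edgeR in the average over both conditions. In the average over both conditions 1 of the 18 brakes rose in Adam17-KD cells, Nfkbie, at log2 0.47 ± 0.09 (adjusted p by edgeR 0.0262), named after its values were seen. That call was lost without any of 9 libraries, the exceptions being replicate 3 of the stimulated Adam17-KD cells, replicate 2 of the stimulated controls and replicate 3 of the unstimulated controls (log2 0.41 to 0.49, adjusted p by edgeR 0.0572 to 0.0949). Dusp1, a brake that did not pass in that average, passed with the replicate numbers as a block (log2 0.61, adjusted p by edgeR 0.0188) and with no filter on low counts (0.0161). Among the 23 signal transmission genes and the 6 IL1 family genes 0 passed by edgeR in that average, with 1 of the 23 and 3 of the 6 at an unadjusted p under 0.05, against 1589 of all 14673 genes. Of these Il18 passed when unstimulated Adam17-KD replicate 3 was left out (log2 1.27, adjusted p by edgeR 0.0440).

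The genes whose level over the 12 libraries was most like that of Irak2, by Pearson's r of log2 CPM, were Tap1 (r = 0.996), Ccrl2 (0.996), Serpina3f (0.996), Gbp2 (0.995) and Rnf19b (0.995). The 12 points fall into a stimulated and an unstimulated cloud and share their libraries, so r is a description of that split. Serpina3f belongs to a family of near-identical genes, and its counts are uncertain.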

How the data were processed

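Poly(A)+ RNA of 12 MC38CEA samples was sequenced with Ion Total RNA-Seq libraries, and the authors deposited whole-number counts of reads per gene, not normalized. The genome build was mm10 per the submitters' processing notes, and the aligner, counter and annotation are not given in the sources used here, nor is the handling of strand. The deposited tables of the authors' own comparisons (mean signal, fold changes and p-values) were not used. The 2 lines whose names had become dates held 0.00808% of counts and were left out.

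The 10 components, the pathway and marker lists and the tests were chosen with earlier results of these data known. Counts were filtered with filterByExpr, scaled by TMM and fitted over all 12 samples with the quasi-likelihood test of edgeR 4.0.16 in R 4.3.3 (14673 genes, 8 residual degrees of freedom by design), with Benjamini-Hochberg adjustment over all genes tested. The SE was taken from the log2 fold change and its F statistic. The script was tested on simulated data. Alternatives were a replicate block, RLE scaling, DESeq2 1.42.0, limma-voom 3.58.1, no filter on low counts, a mean of at least 50 counts, the compared groups alone and each library left out. All components were named, together with up to 5 genes per pathway list with the smallest adjusted p over both cytokine comparisons, Adam17, and the 5 genes most like Irak2, predicted genes left out. Older symbols in the count table were matched for Il36a, Il36b, Il36g, Il36rn and Adgre1. Gene positions and exon lengths came from GENCODE vM21 on GRCm38, the assembly of mm10. Replicate numbers come from the labels. Deviations of same-numbered samples from their group means correlated at -0.25 to 0.49, over 0.1 in 9 of 12 pairs, and in every pair for the cytokine response in control cells and for the knockdown without cytokines.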

Additional observations from a re-analysis of the deposited data

How the results depend on the processing

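The number of components that passed stayed at 4 in each cytokine comparison and at 0 in each comparison of the lines in all 19 alternatives (18 for the difference between responses and for the average), leaving out each library included. Irak2 ranged from log2 3.53 to 3.72 in Adam17-KD and from 3.88 to 4.09 in control cells, and the highest adjusted p of Map3k8, the scarcest, was 0.0137 in Adam17-KD and 0.0181 in control cells. With the replicate block the counts of components were 4, 4 and 0, so it changed no call among them. The same alternatives were run, as a choice made after seeing the data, for the other genes named. Of their calls, Il18 in Adam17-KD cells was lost with the compared groups alone (adjusted p by edgeR 0.0725) and with no filter (0.0508), Il33 passed with no filter in Adam17-KD (0.00162) and control cells (1.14e-05) and in DESeq2 in control cells (0.00753), Tlr3 without cytokines was lost with the compared groups alone (0.0579), and Adam17 with cytokines was lost with them (0.216) and with RLE scaling (0.0510). Between the lines, Nfkbie without cytokines (adjusted p by edgeR 0.0578) passed with RLE scaling (0.0425), DESeq2 (7.25e-04), no filter (0.0486), a mean of at least 50 counts (0.0498) and without stimulated control replicate 2 (0.0381), and with cytokines Dusp1 passed with no filter (0.0188) and Il18bp in DESeq2 (0.0372). Scaling by RLE moved the median of all genes by at most 0.03 on the log2 scale.

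Counts over all genes in the comparisons of the lines depended on the setting, and the cause was not tested. Without cytokines, 69 genes passed in edgeR, 130 with the replicate block, 230 in DESeq2, 223 with no filter and 10 to 126 with a library left out, the lowest without unstimulated Adam17-KD replicate 2 and the highest without stimulated control replicate 2. With cytokines, 5 passed, against 11 with the replicate block, 66 in DESeq2, 98 with no filter, 3 with the compared groups alone and 0 to 6 with a library left out. For the average, 182 passed, against 302 with the replicate block, 424 in DESeq2, 406 with no filter and 69 to 234 with a library left out. For the difference between responses, 0 passed in edgeR (222 at an unadjusted p under 0.05) and in limma-voom, 1 in DESeq2 and 18 with no filter. Irak3, at 1 count in all, could not be tested, and Map3k8, the scarcest component tested, had the widest intervals. The part of depth in either was not tested.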

Other observations

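Toll-like receptors, most of which signal through MyD88 as the IL1 receptor does, are a further group on the same relay. Of 14 such receptors and co-receptors 6 were tested, and 2 rose with IL1β and IFNγ in each line. Over all genes tested 6.37% rose in Adam17-KD and 5.75% in control cells. The other 4, Tlr4, Tlr6, Cd14 and Ly96, did not pass in either line. Tlr2, a receptor of bacterial lipopeptides, averaged 38.9 ± 9.03 CPM in stimulated against 10.5 ± 0.699 CPM in unstimulated Adam17-KD cells (log2 1.89 ± 0.18, adjusted p by edgeR 4.45e-06) and 27.1 ± 3.05 CPM against 7.67 ± 0.573 CPM in control cells (log2 1.82 ± 0.18, adjusted p 6.56e-06; SD, n = 3). Tlr3, a receptor of double-stranded RNA that uses TRIF in place of MyD88, averaged 51.6 ± 2.93 CPM in stimulated against 12.3 ± 1.98 CPM in unstimulated Adam17-KD cells (log2 2.07 ± 0.17, adjusted p by edgeR 1.59e-06) and 42.5 ± 5.18 CPM against 5.51 ± 1.18 CPM in control cells (log2 2.94 ± 0.18, adjusted p 6.12e-08).

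Tlr3 was also the 1 receptor of the 6 that passed between the lines by edgeR. Over all genes tested 0.47% passed without cytokines and 1.24% in the average over both conditions. Tlr2 did not pass in the average over both conditions (log2 0.49, adjusted p by edgeR 0.0840) but did in DESeq2 (0.00945), with no filter (0.0383) and without stimulated Adam17-KD replicate 3 (0.0195). Without cytokines Tlr3 was higher in Adam17-KD cells by log2 1.15 ± 0.18 (adjusted p by edgeR 0.0136), and in the average over both conditions by 0.71 ± 0.12 (adjusted p 0.0104). The first of these calls was lost without replicate 1 or 2 of either unstimulated group (adjusted p by edgeR 0.0518 to 0.0827) and the second without unstimulated Adam17-KD replicate 2 (0.0554). The difference between its cytokine responses, Adam17-KD minus control, was -0.87 ± 0.24 (unadjusted p by edgeR 0.00305) and failed the correction over all genes.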
